A study of Mus musculus with 33 samples.

Results

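The 10 genes described here encode the glucose transporter Slc2a1 and 9 enzymes of glycolysis, Hk1, Hk2, Pfkl, Pfkp, Aldoa, Gapdh, Pgk1, Pkm and Ldha. They were chosen by symbol, as every feature of the count tables whose Ensembl mouse identifier carries one of these symbols in the GRCm38 annotation. This gave 11 features of 31054 in all, because Aldoa has a second identifier with 3 counts over the whole series. The other 10 features, 1 for each gene, were among the 25347 features that reached 1 CPM, the count scaled by the total of the library, in 1 library or more and were tested. The libraries were bulk RNA-Seq of cells sorted from DEREG mice, which carry a diphtheria toxin receptor and EGFP under the Foxp3 promoter, so that Foxp3+ regulatory T cells (Tregs) can be sorted as GFP+ cells. Tolerant mice had received 4000 IEQ of porcine neonatal islet cell clusters (NICC) under the renal capsule, 500 µg of the anti-CD154 antibody MR1 on days 0, 2, 4 and 6 and 500 µg of CTLA4-Fc on day 0, and their cells were taken on day 100. Naive mice carried the same transgene and had neither a transplant nor treatment, so no group here separates the transplant from the antibodies. The study gives the tolerant mice and the naive mice for spleen as male and the naive mice for lymph nodes as female, so that sex and tolerance cannot be told apart in comparisons with DLN/naive Treg. The 33 libraries form 11 groups of 3, which are given with SP for spleen and DLN for the lymph nodes draining the graft. Of the 7 Treg groups, SP/naive Treg and DLN/naive Treg came from naive mice, and SP/CD127- Treg, SP/CD127high Treg, Graft Treg, DLN/CD127- Treg and DLN/CD127high Treg came from tolerant mice. The 4 remaining groups were GFP- CD4+ T cells and leukocytes sorted as CD45+CD4-, each from the spleen of naive and of tolerant mice. CD127 is the IL-7 receptor alpha chain, and tolerant Tregs of spleen and DLN were split by it. The study gives pools of several mice for each library but fewer naive mice than separate pools would need, and the labels do not say whether libraries of a group came from separate mice, so p-values measure the spread between libraries, which may in part be technical.

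Glycolysis turns glucose into pyruvate. Glucose enters the cell through facilitative transporters such as Slc2a1 (GLUT1), hexokinases trap it as glucose 6-phosphate, phosphofructokinases make the committed step, and the enzymes from aldolase to pyruvate kinase yield ATP and pyruvate, which lactate dehydrogenase can reduce to lactate. Conventional T cells are known to raise this pathway when they are activated, while Tregs are known for a greater reliance on oxidative metabolism, and the transcription factors Hif1a and Myc are known activators of many of its genes. Hif1a dimers bind the letters ACGTG, the core of the hypoxia response element.

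Promoter sequences are shown for 5 members, namely the pairs whose group means were most alike in these libraries (Pgk1 with Ldha, and Hk2 with Pfkl) and the transporter. All 10 members matched the RefSeq promoter table on GRCm38.p6, and the 250 bases before the start of the first RefSeq entry of each gene were searched. The letters ACGTG, on either strand, are in capitals.
Ldha, chr7:46845554-46845803, plus strand: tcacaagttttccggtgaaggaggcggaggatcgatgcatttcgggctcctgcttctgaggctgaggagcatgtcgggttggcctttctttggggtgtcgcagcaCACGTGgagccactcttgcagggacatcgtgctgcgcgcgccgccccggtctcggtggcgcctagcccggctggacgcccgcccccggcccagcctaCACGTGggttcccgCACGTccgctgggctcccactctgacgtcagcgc
Pgk1, chrX:106186850-106187099, plus strand: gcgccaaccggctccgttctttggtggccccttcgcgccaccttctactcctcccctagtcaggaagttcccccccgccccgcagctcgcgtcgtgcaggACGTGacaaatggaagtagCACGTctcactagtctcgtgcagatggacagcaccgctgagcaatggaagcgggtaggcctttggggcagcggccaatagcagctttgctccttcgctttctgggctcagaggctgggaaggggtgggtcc
Hk2, chr6:82774455-82774704, minus strand: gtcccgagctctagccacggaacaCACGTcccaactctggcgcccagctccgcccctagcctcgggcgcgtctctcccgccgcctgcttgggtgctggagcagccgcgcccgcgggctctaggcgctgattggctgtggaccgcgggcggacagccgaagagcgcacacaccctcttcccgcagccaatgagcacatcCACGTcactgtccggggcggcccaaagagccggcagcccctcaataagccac
Pfkl, chr10:78009808-78010057, minus strand: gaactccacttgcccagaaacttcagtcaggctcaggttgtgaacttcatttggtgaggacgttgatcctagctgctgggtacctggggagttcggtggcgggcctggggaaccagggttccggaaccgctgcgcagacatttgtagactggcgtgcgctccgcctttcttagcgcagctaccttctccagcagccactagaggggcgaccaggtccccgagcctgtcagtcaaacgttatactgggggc
Slc2a1, chr4:119108495-119108744, plus strand: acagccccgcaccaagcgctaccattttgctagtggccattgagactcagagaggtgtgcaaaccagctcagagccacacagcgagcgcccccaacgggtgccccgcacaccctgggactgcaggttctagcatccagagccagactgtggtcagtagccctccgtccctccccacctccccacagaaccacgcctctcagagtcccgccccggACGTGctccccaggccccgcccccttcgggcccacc
The Ldha promoter held 3 stretches with these letters, at 145, 48 and 34 bases before the start, and the first and the second of them are the palindrome CACGTG, which contains ACGTG on both strands. Pgk1 held 2 at 150 and 131 bases, Hk2 held 2 at 226 and 52 bases, and Slc2a1 held 1 at 36 bases. The remaining 6 members, Pfkl among them, held none in this window. ACGTG was thus present in 4 of 10 member promoters, against 16.6% of the 27025 promoters of the same length and 20.1% of the 13770 promoters within the members' range of GC content. The E-box CACGTG was found in Ldha alone of the members and in 6.05% of all promoters. The GC box GGGCGG was found in 6 of 10 members (Slc2a1, Hk2, Pfkp, Pgk1, Pkm and Ldha) against 32.9%, and the letters CCAAT in 4 of 10 (Hk2, Pfkp, Pgk1 and Pkm) against 34.5%. All were searched on both strands, ACGTG lies within CACGTG, and a match is a description of the letters, not a binding site.

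Glycolytic genes have many processed pseudogenes, and reads that fit several places equally well are not counted to a gene. How far this could touch each member was described by cutting its protein-coding transcripts into all windows of 75 bases, the read length, and looking for each window in the transcripts of every other gene. No window was shared for 5 members (Slc2a1, Hk1, Hk2, Pfkl and Pfkp). The share was 0.708% for Aldoa, 3.11% for Ldha, 14% for Pkm, 55.5% for Gapdh and 67.5% for Pgk1. Gapdh shared windows with 118 other genes, 113 of them annotated as pseudogenes, while Pgk1 shared windows with 4, all of them pseudogenes. The window of each that occurred in the most other genes is shown. That of Gapdh lies in exon 4 and is present in 48 other genes, and that of Pgk1 lies in exon 8 and is present in 3.
Gapdh, chr6:125162873-125162947, minus strand: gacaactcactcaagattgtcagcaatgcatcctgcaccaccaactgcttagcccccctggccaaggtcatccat
Pgk1, chrX:106200208-106200282, plus strand: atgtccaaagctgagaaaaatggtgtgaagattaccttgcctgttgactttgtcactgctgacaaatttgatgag
The counts of Gapdh and Pgk1 are therefore uncertain as absolute levels, because only part of each transcript could give a single read found in no other gene. The libraries were sequenced as read pairs, so the share of windows is not the share of counts lost.

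**Figure D1:**
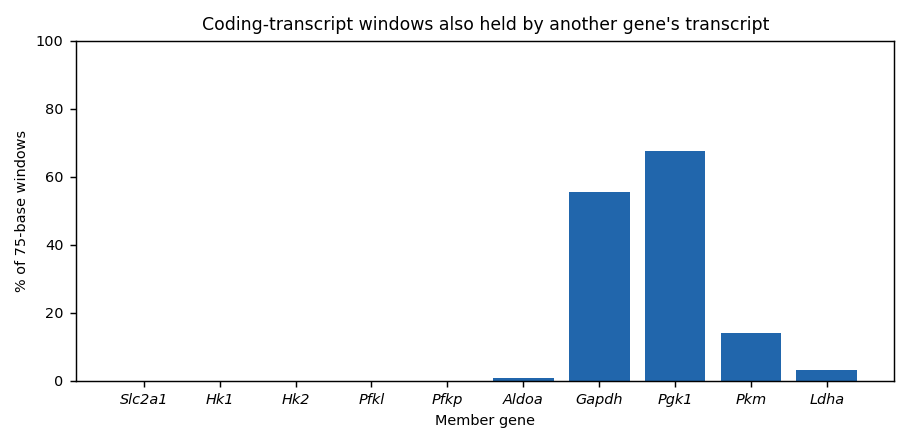
Percent of all 75-base windows of protein-coding transcripts that also occur in a transcript of another gene, for the 10 members, with bars starting at 0. Pgk1 reached 67.5% and Gapdh 55.5%, and 5 members had none.

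Library totals on genes were 2550698 to 4615283 counts for the 24 spleen and graft libraries and 844039 to 1935323 for the 9 DLN libraries. The former were run on a NextSeq 500 and the latter on a MiSeq, and for DLN the tissue and the instrument cannot be told apart. A value of 3 counts stood for 0.650 to 1.18 CPM in the former and 1.55 to 3.55 CPM in the latter. Foxp3 averaged 206 to 600.1 CPM in the 7 Treg groups and 0.501 to 2.97 CPM in the 4 other groups. Of markers of other cells, 8 B cell genes summed to 184 to 647 CPM in the DLN/CD127high Treg libraries against 0.542 to 98.9 CPM in the 12 Treg libraries of spleen and graft. The 10 macrophage and monocyte genes, led by Lyz2, summed to 603 to 986 CPM in DLN/CD127high Treg against 0 to 472 CPM in those 12. The 10 kidney epithelial genes summed to 22.6 to 932 CPM in Graft Treg libraries. The 5 erythroid genes measured reached 935 CPM in 1 library of SP/CD127high Treg, 563 CPM in 1 of SP/CD127- Treg and 317 CPM in 1 of naive CD4+ T cells. The genes of the sex chromosomes went against the stated sex in 1 library. Xist, which is expressed from the inactive X chromosome of females, was 405, 459 and 1.24 CPM in DLN/naive Treg and at most 5.41 CPM in every other library, and 4 Y-linked genes summed to 3.55, 16.1 and 504 CPM there against 507 to 1294 CPM in the other 30 libraries. Library 3 labelled DLN/naive Treg thus had the pattern of male mice and libraries 1 and 2 that of female mice, and comparisons with this group are also given without library 3. The DLN libraries of tolerant mice all had the male pattern. Without library 3, sex and tolerance are therefore wholly confounded in DLN, and with it they are confounded in part.

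Levels were scaled by library total with TMM factors, and group values are the mean ± SD of 3 libraries in CPM. Averaged over the 11 groups, Ldha was highest at 209 CPM, followed by Pfkp (119), Aldoa (106), Gapdh (98.7), Pkm (62.0), Pgk1 (31.8), Hk1 (26.0), Pfkl (19.6), Slc2a1 (18.6) and Hk2 (14.9). Per kb of exon, taken as the union of all annotated exons of a gene, the order was Ldha (63.2 CPM per kb), Aldoa (36.4), Gapdh (23.9), Pgk1 (14.2), Pkm (12.4), Pfkp (8.88), Slc2a1 (5.31), Hk1 (3.05), Pfkl (2.94) and Hk2 (2.50). The places of Gapdh and Pgk1 are uncertain, since 55.5% and 67.5% of their windows were shared with other genes. Among the 10 members, on the union length, the enzymes from aldolase to lactate dehydrogenase stood above the transporter, hexokinases and phosphofructokinases per kb. This says nothing of the other enzymes of these steps. For Pfkp the union length was 13401 bases, but its protein-coding transcripts held 4561 distinct windows. Pkm had 5001 bases and 3977 windows, and Pgk1 had 2244 bases and 1751 windows. The place of Pfkp below Pkm and Pgk1 therefore depends on the length used. In bulk libraries, fewer cells that express a gene and less RNA in each cell cannot be told apart. The libraries of a group differed widely. The median coefficient of variation within groups was 48.9% over the 10 members, against 50.5% over the 6675 genes within the same range of mean CPM.

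**Figure D2:**
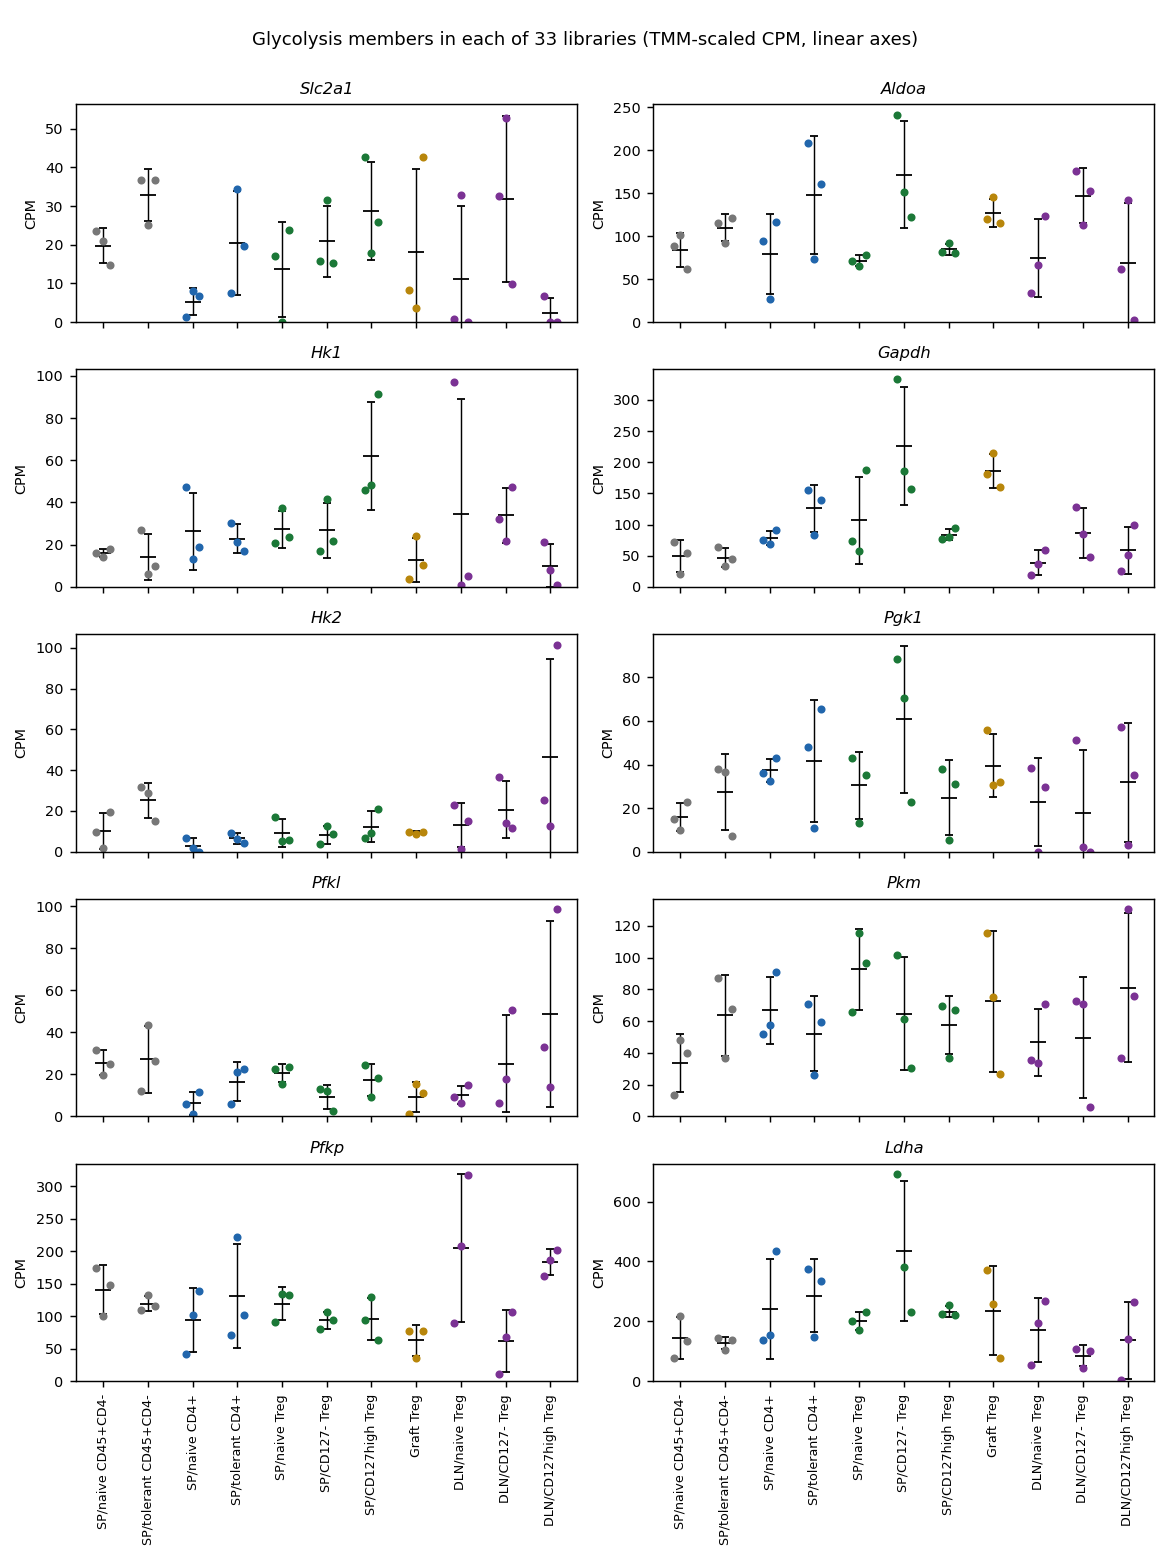
Level in CPM (TMM-scaled) of each of the 10 genes in the 11 groups, with each library as a point and the mean and SD of 3 libraries (error bars cut at 0). Aldoa, Gapdh, Pgk1 and Ldha had their highest group mean in SP/CD127- Treg, with library 1 of that group at the top for each, and the libraries of neighbouring groups overlapped in nearly every panel.

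Slc2a1 (ENSMUSG00000028645, chr4:119108711-119137983), the GLUT1 transporter, was highest in SP/tolerant CD45+CD4- cells, with 36.7, 25.01 and 36.7 CPM, and lowest in DLN/CD127high Treg, with 6.81, 0 and 0 CPM. These groups did not overlap, and 2 of the 3 low libraries held no count of the gene. Among CD4+ T cells it was 5.30 ± 3.51 CPM in naive and 20.5 ± 13.5 CPM in tolerant spleen, and in CD45+CD4- cells of naive spleen 19.7 ± 4.47 CPM. Splenic Tregs had 13.6 ± 12.2 (naive), 20.8 ± 9.20 (CD127-) and 28.7 ± 12.7 CPM (CD127high). Graft Treg had 18.2 ± 21.3, DLN/naive Treg 11.2 ± 18.8 and DLN/CD127- Treg 31.8 ± 21.5 CPM. The spread was wide within most Treg groups. SP/naive Treg held 17.1, 0 and 23.7 CPM, and the gene was at 0 in 4 of 33 libraries and at 3 counts or fewer in 5.

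Hk1 (ENSMUSG00000037012, chr10:62268855-62379908), the hexokinase of most resting cells, was highest in SP/CD127high Treg, with 45.9, 48.4 and 91.5 CPM, and lowest in DLN/CD127high Treg, with 21.4, 7.88 and 1.04 CPM, and these groups did not overlap. The other splenic groups lay close together. They averaged 15.9 ± 1.84 CPM in naive and 14.3 ± 10.9 in tolerant CD45+CD4- cells, 26.3 ± 18.3 in naive and 22.8 ± 6.81 in tolerant CD4+ T cells, 27.2 ± 8.81 in SP/naive Treg and 26.7 ± 13.03 in SP/CD127- Treg. Graft Treg averaged 12.6 ± 10.4, DLN/CD127- Treg 33.8 ± 12.8 and DLN/naive Treg 34.3 ± 54.6 CPM. The last of these means rests on 1 library, since its values were 97.3, 0.701 and 4.96 CPM.

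Hk2 (ENSMUSG00000000628, chr6:82725025-82774454), the hexokinase that is known to be induced by growth signals and hypoxia, was highest in DLN/CD127high Treg and lowest in naive CD4+ T cells. The values were 25.3, 12.6 and 102 CPM in the former and 6.89, 1.90 and 0 CPM in the latter, which do not overlap, although library 3 of DLN/CD127high Treg stood far above the other two. CD45+CD4- cells had 10.2 ± 8.71 (naive) and 25.1 ± 8.65 CPM (tolerant), and tolerant CD4+ T cells 6.49 ± 2.51 CPM. Tregs of the spleen and graft differed little from each other, at 9.23 ± 6.79 (SP/naive), 8.35 ± 4.47 (SP/CD127-), 12.3 ± 7.76 (SP/CD127high) and 9.36 ± 0.742 CPM (graft). DLN/naive Treg had 13.003 ± 10.8 and DLN/CD127- Treg 20.6 ± 13.8 CPM.

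The phosphofructokinases among the members were Pfkl (ENSMUSG00000020277, chr10:77986947-78010083), the liver-type subunit, and Pfkp (ENSMUSG00000021196, chr13:6579768-6648777), the platelet-type subunit. Pfkl was highest in DLN/CD127high Treg, with 33.1, 14.2 and 98.5 CPM, again through library 3, and lowest in naive CD4+ T cells, with 5.91, 0.950 and 11.8 CPM. It averaged 25.6 ± 5.96 and 27.2 ± 15.9 CPM in naive and tolerant CD45+CD4- cells and 16.6 ± 9.26 CPM in tolerant CD4+ T cells. The spleen and graft Treg groups had 20.6 ± 4.42 (SP/naive), 9.32 ± 5.80 (SP/CD127-), 17.3 ± 7.76 (SP/CD127high) and 9.25 ± 7.17 CPM (graft). In DLN, naive Tregs had 10.1 ± 4.36 and CD127- Tregs 25.1 ± 22.9 CPM. Pfkp, in contrast, had its highest and its lowest mean in the same tissue. It was 89.5, 208 and 318 CPM in DLN/naive Treg, 11.4, 67.7 and 107 CPM in DLN/CD127- Treg and 163, 187 and 201 CPM in DLN/CD127high Treg. The groups with the highest and the lowest mean overlapped for Pfkp, because library 1 of DLN/naive Treg lay below library 3 of DLN/CD127- Treg. Spleen groups ranged from 93.5 ± 12.98 CPM in SP/CD127- Treg to 141 ± 37.4 CPM in naive CD45+CD4- cells. Between them lay naive (94.4 ± 49.3) and tolerant (131 ± 79.5) CD4+ T cells, tolerant CD45+CD4- cells (119 ± 11.3), SP/naive Treg (119.5 ± 24.8) and SP/CD127high Treg (95.7 ± 32.7), while Graft Treg had 63.4 ± 23.8 CPM.

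Aldoa (ENSMUSG00000030695, chr7:126795234-126800751), the aldolase of most tissues, was highest in SP/CD127- Treg, with 241, 152 and 122 CPM. Its lowest mean was in DLN/CD127high Treg, where the libraries differed widely, at 61.3, 142 and 2.07 CPM. Tolerant CD4+ T cells (148 ± 68.5) and DLN/CD127- Treg (147 ± 31.9) followed the highest group closely, then Graft Treg (127 ± 16.5) and tolerant CD45+CD4- cells (109.9 ± 15.4 CPM). The rest averaged 84.7 ± 6.68 (SP/CD127high Treg), 83.8 ± 20.3 (naive CD45+CD4-), 79.0 ± 46.5 (naive CD4+), 74.5 ± 45.5 (DLN/naive Treg) and 71.4 ± 6.67 CPM (SP/naive Treg).

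Gapdh (ENSMUSG00000057666, chr6:125161715-125166467), which oxidises glyceraldehyde 3-phosphate, was likewise highest in SP/CD127- Treg, with 333, 186 and 158 CPM, and was second in Graft Treg, with 181, 215 and 161 CPM. It was lowest in DLN/naive Treg, with 19.2, 37.1 and 59.5 CPM, below every library of those groups. The gene is often used as a constant reference, and its group means here differed by 5.84-fold between the highest and the lowest. The intermediate Treg groups had 106 ± 70.5 (SP/naive), 83.8 ± 9.31 (SP/CD127high), 86.7 ± 40.4 (DLN/CD127-) and 58.4 ± 37.8 CPM (DLN/CD127high). CD4+ T cells had 78.3 ± 11.7 (naive) and 126 ± 38.1 CPM (tolerant), and CD45+CD4- cells 48.9 ± 25.9 (naive) and 46.9 ± 15.4 CPM (tolerant).

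Pgk1 (ENSMUSG00000062070, chrX:106187100-106203699), the first ATP-yielding enzyme of the pathway, had its highest mean in SP/CD127- Treg, with 88.4, 70.7 and 22.9 CPM, and its lowest in naive CD45+CD4- cells, with 14.97, 10.1 and 22.9 CPM. The bottom library of the former and the top library of the latter differed only in the second decimal. It stood at 41.6 ± 27.9 in tolerant and 37.3 ± 5.34 CPM in naive CD4+ T cells, at 39.5 ± 14.4 CPM in Graft Treg and at 30.5 ± 15.5 CPM in SP/naive Treg. SP/CD127high Treg (24.9 ± 17.1) and tolerant CD45+CD4- cells (27.3 ± 17.5 CPM) were lower. In DLN it was 22.7 ± 20.1 (naive), 17.7 ± 29.0 (CD127-) and 31.9 ± 27.3 CPM (CD127high), with libraries at 0 in each of the first 2 of these groups.

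Pkm (ENSMUSG00000032294, chr9:59656368-59679375), the pyruvate kinase of non-hepatic tissues, had its highest mean in SP/naive Treg, with 65.5, 116 and 96.7 CPM, and its lowest in naive CD45+CD4- cells, with 13.4, 47.9 and 39.9 CPM. The remaining 9 groups differed little against their spread. Spleen Tregs of tolerant mice had 64.7 ± 35.7 (CD127-) and 57.8 ± 18.3 CPM (CD127high), and Graft Treg 72.5 ± 44.5 CPM. CD4+ T cells had 66.8 ± 21.1 (naive) and 52.3 ± 23.5 CPM (tolerant), and tolerant CD45+CD4- cells 63.7 ± 25.4 CPM. DLN Tregs had 46.6 ± 20.9 (naive), 49.6 ± 38.0 (CD127-) and 81.2 ± 47.2 CPM (CD127high).

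Ldha (ENSMUSG00000063229, chr7:46841475-46855627), the lactate dehydrogenase subunit that favours lactate formation, was the most abundant member. It was highest in SP/CD127- Treg, with 692, 383 and 232 CPM, and lowest in DLN/CD127- Treg, with 109, 44.8 and 101 CPM. These groups share the CD127- sort and did not overlap, but they come from different tissues and sequencers. Tolerant and naive CD4+ T cells averaged 286 ± 122 and 242 ± 166 CPM, and tolerant and naive CD45+CD4- cells 129 ± 20.1 and 143 ± 70.1 CPM. The other Treg groups had 236 ± 148 (graft), 233 ± 18.6 (SP/CD127high), 202 ± 31.0 (SP/naive), 172 ± 107 (DLN/naive) and 136 ± 129 CPM (DLN/CD127high). Library 1 of the last group held only 4.87 CPM, or 5 counts, against 141 and 263 CPM in its partners.

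The 10 members together summed to 1587, 1057 and 708 CPM in SP/CD127- Treg, the highest mean of the 11 groups (1117 ± 443 CPM). The other groups averaged 538 CPM (naive CD45+CD4- cells) to 851 CPM (tolerant CD4+ T cells), and library 3 of SP/CD127- Treg lay within their range. Library 1 of SP/CD127- Treg, which held the sum of 1587 CPM, stood apart from the other 32 libraries in how its reads were assigned. Reads outside genes made up 13.2% of it, against 23.4 to 49.0% in the others, and multimapping reads 14.1%, against 6.43 to 12.9%, and the part of this in its levels was not tested. Without it the mean sum of SP/CD127- Treg was 882 CPM, still the highest, and this group kept the highest mean of Pgk1 and Ldha, while that of Aldoa was in tolerant CD4+ T cells and that of Gapdh in Graft Treg. SP/CD127- Treg had the highest group mean for 4 members and the lowest for none, and DLN/CD127high Treg had the highest for 2 (Hk2 and Pfkl) and the lowest for 3 (Slc2a1, Hk1 and Aldoa). When the group means of each member were put in order, the libraries of neighbours overlapped in 98 of 100 neighbouring pairs, and 91 of these 100 steps were no larger than the larger SD of the pair. The highest and the lowest group overlapped for 2 members, Pfkp and Aldoa. Here and in the descriptions of each gene above, these groups were picked as the extremes of 11 means of the same values. Their separation is therefore no result about a member, and the share over all genes for such a choice was not computed. Without library 3 of DLN/naive Treg the mean of Pfkp there was 149 CPM, and DLN/CD127high Treg had the highest mean of that gene. The mean of Aldoa in DLN/naive Treg was then 49.97 CPM, the lowest for that gene. With RLE size factors in place of TMM, another group was highest for 4 members (Slc2a1, Pfkp, Aldoa and Pkm) and lowest for 3 (Hk1, Pfkp and Aldoa), while the extremes of Hk2, Pfkl, Gapdh, Pgk1 and Ldha stayed in their groups. With library totals and no TMM factors, another group was highest for Pfkp and lowest for 4 members (Aldoa, Hk1, Pfkp and Pgk1).

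No member passed the test in any of the 18 comparisons. With edgeR's quasi-likelihood test and Benjamini-Hochberg adjustment over all 25347 genes, 0 of 180 member tests had an adjusted p under 0.05, and the lowest adjusted p was 0.367. At an unadjusted p under 0.05 there were 5 of 180, or 2.78%, against 7.86% of all gene tests and 6.97% of those of genes within the members' range of CPM. The likelihood ratio test of edgeR and DESeq2 also called 0 members. DESeq2 gave 16 of 180 at an unadjusted p under 0.05, and the likelihood ratio test gave 8 of 220 with the differences of effects included. The libraries of the compared groups did not overlap in 31 of the 180 cases, or 17.2%, 20 of them higher and 11 lower in the group named first. The share was 9.27% over all genes and 16.7% over genes within the members' range of CPM. The median standard error of a member's log2 fold change was 1.01, so that a difference had to be several-fold to be detectable, and the absence of a call does not show that levels were equal.

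**Figure D3:**
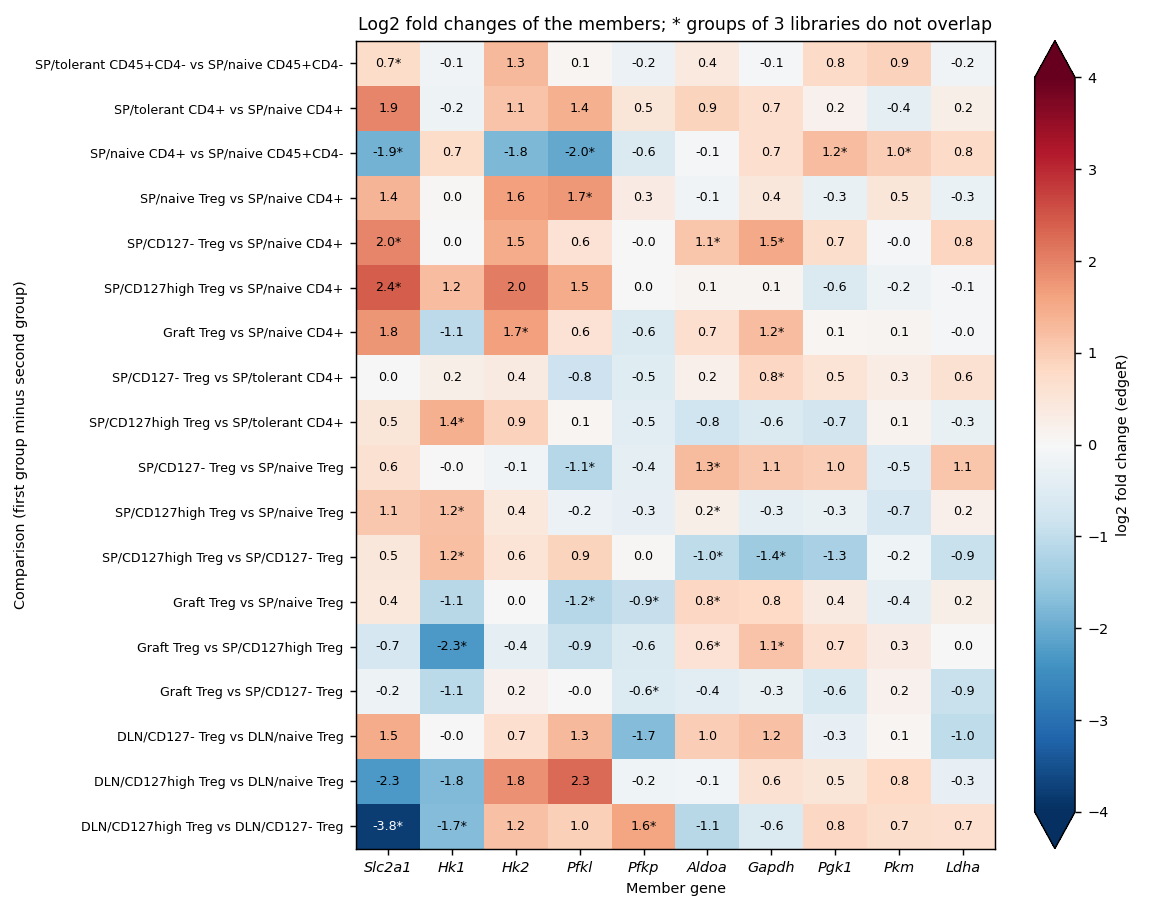
Log2 fold change of each of the 10 genes in the 18 comparisons, as fitted by edgeR, with an asterisk where the libraries of both groups do not overlap. No value had an adjusted p under 0.05, and the 5 with an unadjusted p under 0.05 were those of Gapdh, Pfkp and Slc2a1 described in the text.

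The first question was whether tolerance went with a change of these genes outside Tregs. In CD45+CD4- cells, 0 of 10 members were called for tolerant against naive spleen, where 0.0355% of all genes were called, and 0 had an unadjusted p under 0.05. The median member log2 fold change was 0.24, against 0 for all genes. Groups did not overlap for 1 of 10 members and for 6.79% of all genes. This member was Slc2a1, with 23.5, 20.9 and 14.8 CPM in naive and 36.7, 25.01 and 36.7 CPM in tolerant cells, a log2 fold change of 0.73 ± 1.39 (adjusted p = 1). Of the Treg genes 2 of 7 were called lower in the same comparison (list median -1.17), while T cell genes had a list median of -0.96 with 6 of 8 at an unadjusted p under 0.05 and erythroid genes one of 4.13 with 3 of 5. In CD4+ T cells, 0 of 10 were called for tolerant against naive spleen (0.107% of all genes), 0 at an unadjusted p under 0.05, and every member overlapped, while 9.63% of all genes did not. Of these members 8 had a fold change above 0 and the median was 0.58, while the median of all genes was -0.23. Slc2a1 had the largest, with 1.31, 7.92 and 6.66 CPM in naive and 7.52, 34.4 and 19.6 CPM in tolerant CD4+ T cells and a difference of 1.94 ± 1.44 on the log2 scale (adjusted p = 0.732). The ranges met at a single pair of libraries. Of the B cell genes 2 of 8 were called lower in tolerant CD4+ T cells (list median -2.82), and of the erythroid genes 1 of 5 (list median -7.78), through sums of 317, 0 and 0 CPM in naive and 0.684, 0 and 0 CPM in tolerant cells, while 1 of 7 Treg genes was called higher (list median 0.38) and T cell genes had 5 of 8 at an unadjusted p under 0.05 (list median 0.36). The part of these lists in either comparison was not tested.

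Naive CD4+ T cells were compared with naive CD45+CD4- cells to set the cell types side by side. None of the 10 members was called, against 1.04% of all genes, and 0 had an unadjusted p under 0.05. Pgk1 was 36.1, 32.6 and 43.1 CPM in the T cells and 14.97, 10.1 and 22.9 CPM in CD45+CD4- cells, and Pkm was 51.8, 57.6 and 90.9 and 13.4, 47.9 and 39.9 CPM. Both were higher in every T cell library, at log2 fold changes of 1.22 ± 1.17 and 0.98 ± 0.87. Slc2a1 and Pfkl were lower in every T cell library, at -1.89 ± 1.43 and -2.04 ± 1.38, and the 95% intervals of all of them included 0. Groups did not overlap for these 4 of 10 members and for 12.9% of all genes. The sorted cell types differed in their markers, with 6 of 8 T cell and 4 of 7 Treg genes called higher and 8 of 8 B cell, 1 of 7 Treg and 1 of 10 macrophage and monocyte genes called lower in the T cells. Of the erythroid genes 1 of 5 was called higher (list median 5.73), and the part of these lists was not tested.

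Tregs were then compared with GFP- CD4+ T cells of the spleen. Against naive CD4+ T cells, 0 of 10 members were called in SP/naive Treg (0.264% of all genes), SP/CD127- Treg (0.469%), SP/CD127high Treg (0.422%) or Graft Treg (0.619%), and the unadjusted p was under 0.05 for 0, 1, 0 and 0 members. These comparisons share the naive CD4+ libraries. Gapdh was 74.8, 68.7 and 91.3 CPM in naive CD4+ T cells and 333, 186 and 158 CPM in SP/CD127- Treg, with no overlap and a log2 fold change of 1.53 ± 0.71 (95% interval 0.12 to 2.93, unadjusted p = 0.0333, adjusted p = 0.523, edgeR). Without library 1 of SP/CD127- Treg it was 1.13 (unadjusted p = 0.157, edgeR). Graft Treg, at 181, 215 and 161 CPM, also lay above every naive CD4+ library, with 1.25 ± 0.71. Slc2a1 was above every naive CD4+ library in both SP/CD127- Treg (1.97 ± 1.44) and SP/CD127high Treg (2.43 ± 1.46), Aldoa in SP/CD127- Treg (1.12 ± 0.70), Pfkl in SP/naive Treg (1.73 ± 1.37) and Hk2 in Graft Treg (1.65 ± 1.49), all on the log2 scale. The median member fold change was 0.39, 0.78, 0.10 and 0.35 in the same order, and those of all genes were -0.09, -0.26, -0.13 and -0.22. Over all genes, 10% (SP/naive Treg), 12% (SP/CD127- Treg), 11.6% (SP/CD127high Treg) and 9.82% (Graft Treg) did not overlap with naive CD4+ T cells, against 1, 3, 1 and 2 of 10 members. The 10 kidney epithelial genes, which summed to 3.92 to 7.87 CPM in naive CD4+ T cells, moved with the graft comparison. The 10 macrophage and monocyte genes summed to 0.328 to 6.02 CPM in naive CD4+ T cells and to 29.5 to 136 CPM in SP/naive Treg, 9.31 to 309 CPM in SP/CD127- Treg, 181 to 247 CPM in SP/CD127high Treg and 0 to 472 CPM in Graft Treg, with 1 of 10 called higher in each of the 4 comparisons and median log2 fold changes of 3.35, 3.27, 4.64 and -1.76. Their highest sum in SP/CD127- Treg, 309 CPM, was in the library with Gapdh at 333 CPM, while the libraries with Gapdh at 186 and 158 CPM held 9.31 and 112 CPM. The B cell genes, at 97.1, 144 and 4.70 CPM in naive CD4+ T cells, had 2, 3, 2 and 2 of 8 called lower in the 4 comparisons and 1 called higher in the graft. The erythroid genes had list medians of -5.56, 0.77, 1.43 and -6.10, with 1 of 5 called lower in the graft, and 1 of 8 T cell genes was called lower in SP/CD127high Treg. Proliferation genes had 0 calls but 6 of 8 at an unadjusted p under 0.05 in SP/CD127- Treg (list median 2.08) and 5 of 8 in Graft Treg (2.27). The part of these lists in the differences was not tested.

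Against tolerant CD4+ T cells of the same kind of mice, 0 of 10 members were called in SP/CD127- Treg (0.284% of all genes) or SP/CD127high Treg (0.324%), and 0 had an unadjusted p under 0.05 in either. Gapdh was 156, 83.0 and 139 CPM in tolerant CD4+ T cells, below every SP/CD127- Treg library, the lowest of which held 158 CPM, and the log2 fold change was 0.84 ± 0.70. Without library 1 of SP/CD127- Treg the latter was 0.45. Hk1 was 30.3, 21.2 and 16.995 CPM there, below every SP/CD127high Treg library, with 1.44 ± 1.24. The other members overlapped, as did all but 11.3% and 13.2% of all genes. Of the markers of other cells, 1 of 10 macrophage and monocyte genes was called higher in each comparison (list medians 2.73 and 3.72), 1 and 2 of 5 erythroid genes were called higher (9.19 and 9.65), and of 8 B cell genes 1 was called higher and 1 lower in the former and 2 higher in the latter. Of the T cell genes 1 of 8 was called lower in each. Their part was not tested.

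Tregs of the spleen were compared with each other. In SP/CD127- Treg against SP/naive Treg 0 of 10 were called (0.071% of all genes) and 0 had an unadjusted p under 0.05. Aldoa, at 71.0, 65.0 and 78.3 CPM in naive Tregs, was lower than in every SP/CD127- Treg library (1.27 ± 0.71 for CD127- minus naive), and Pfkl, at 22.6, 15.6 and 23.7 CPM, was higher (-1.14 ± 1.34). In SP/CD127high Treg against SP/naive Treg 0 of 10 were called (0.0197% of all genes), 0 at an unadjusted p under 0.05. Groups did not overlap for 8.97% of all genes in the former and 6.77% in the latter comparison. Hk1 and Aldoa did not overlap in the latter, but by log2 fold changes of 1.19 ± 1.23 and 0.25 ± 0.70. In CD127- against naive Tregs 1 of 8 T cell genes was called higher (list median 0.62) and 1 of 8 B cell genes lower (-1.53), and in CD127high against naive Tregs 1 of 8 B cell genes was called higher (0.57). The erythroid genes had list medians of 6.33 and 6.95 in these comparisons, each with 0 of 5 called and 4 at an unadjusted p under 0.05. The part of these lists was not tested. Without library 1 of SP/CD127- Treg the log2 fold change of Aldoa against naive Tregs was 0.94.

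In SP/CD127high Treg against SP/CD127- Treg 0 of 10 members were called, where 0.0907% of all genes were. Gapdh was 76.8, 80.2 and 94.4 CPM in CD127high and 333, 186 and 158 CPM in CD127- Tregs, so that every CD127high library was lower, and the log2 fold change was -1.43 ± 0.71 (95% interval -2.83 to -0.03, unadjusted p = 0.0456, adjusted p = 0.733, edgeR). Aldoa showed the same order, with 81.3, 92.4 and 80.5 CPM against 241, 152 and 122 CPM and -1.02 ± 0.70. Hk1 showed the opposite order, with 45.9, 48.4 and 91.5 CPM in CD127high and 16.95, 41.5 and 21.7 CPM in CD127- Tregs, and 1.21 ± 1.23. Groups did not overlap for 3 of 10 members and for 10.6% of all genes. The 5 erythroid genes measured summed to 0.425, 0 and 935 CPM in CD127high and 5.37, 0.252 and 563 CPM in CD127- Tregs, so that they were high in library 3 of both groups, which held the highest Hk1 value of CD127high but not of CD127- Tregs, and 0 of them were called. Of the T cell genes 2 of 8 were called lower in CD127high Tregs, and the list summed to 6752, 6261 and 6336 CPM there against 14230, 9376 and 10362 CPM in CD127- Tregs without overlap, the same order as Gapdh and Aldoa. Of the B cell genes 1 of 8 was called higher (list median 2.70). The part of these lists was not tested. Without library 1 of SP/CD127- Treg the log2 fold changes of Gapdh and Aldoa were -1.04 and -0.69 (unadjusted p = 0.196 and 0.379, edgeR). Ldha averaged less in CD127high Tregs but overlapped, since library 3 of SP/CD127- Treg lay between 2 of them.

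Graft Tregs came from the site of the NICC graft under the renal capsule and were compared with the Tregs of the spleen. Against SP/naive Treg 0 of 10 members were called (0.13% of all genes), against SP/CD127high Treg 0 (0.103%) and against SP/CD127- Treg 0 (0.0829%), and no member had an unadjusted p under 0.05 in these 3 comparisons, which share the graft libraries. Aldoa was 120.0, 146 and 115 CPM in the graft, above every SP/naive Treg library (0.83 ± 0.70) and every SP/CD127high Treg library (0.58 ± 0.70). Gapdh was above every SP/CD127high Treg library (1.15 ± 0.71). Pfkp was 76.9, 35.9 and 77.5 CPM in the graft, below every library of SP/naive Treg (-0.91 ± 0.66) and of SP/CD127- Treg (-0.56 ± 0.66), Pfkl was below every SP/naive Treg library (-1.15 ± 1.34) and Hk1 below every SP/CD127high Treg library (-2.29 ± 1.27). None of these log2 differences had a 95% interval that left out 0. Groups did not overlap for 3, 3 and 1 of 10 members against SP/naive, SP/CD127high and SP/CD127- Treg and for 8.15%, 8.52% and 7.2% of all genes. The kidney epithelial genes summed to 173, 932 and 22.6 CPM in the 3 graft libraries and to at most 15.9 CPM in any spleen Treg library, with 1 of 10 called higher in each comparison. By list median the macrophage and monocyte genes went the other way against SP/naive Treg, at -4.44 with 0 of 10 called but 7 at an unadjusted p under 0.05, and had list medians of -3.92 against SP/CD127high Treg and -3.32 against SP/CD127- Treg. Their sums were 66.1, 0 and 472 CPM in the graft and 9.31 to 309 CPM in the spleen Treg libraries, so library 3 of the graft stood above all of these. The erythroid genes had 1 of 5 called lower against SP/CD127high Treg (list median -7.48) and 5 of 5 at an unadjusted p under 0.05 against SP/CD127- Treg (-6.87), 1 of 7 Treg genes was called higher against SP/naive and against SP/CD127high Treg, and the B cell genes 1 of 8 called lower against each of SP/naive and SP/CD127high Treg and 2 called higher against SP/CD127- Treg. The part of these lists was not tested.

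In the DLN, where the libraries were shallower, 0 of 10 members were called for DLN/CD127- Treg against DLN/naive Treg (0.355% of all genes), DLN/CD127high Treg against DLN/naive Treg (0.951%) or DLN/CD127high Treg against DLN/CD127- Treg (0.418%), with 1, 0 and 2 members at an unadjusted p under 0.05. Pfkp, at 89.5, 208 and 318 CPM in naive and 11.4, 67.7 and 107 CPM in CD127- Tregs, gave a log2 fold change of -1.73 ± 0.68 (95% interval -3.06 to -0.39, unadjusted p = 0.0115, adjusted p = 0.367, edgeR), although the groups overlapped. DLN/CD127high Treg, at 163, 187 and 201 CPM, lay above every DLN/CD127- Treg library, at 1.57 ± 0.68 (unadjusted p = 0.0214, adjusted p = 0.416, edgeR). Slc2a1 went the other way. It was 32.7, 52.8 and 9.81 CPM in CD127- and 6.81, 0 and 0 CPM in CD127high Tregs without overlap, with a fitted log2 fold change of -3.80 ± 1.61 (unadjusted p = 0.0188, adjusted p = 0.399, edgeR) that is no bound, because libraries without a count enter it. Hk1 was also lower in every CD127high library (-1.74 ± 1.27). These were 3 of 10 members without overlap, against 5.37% of all genes. For CD127high against CD127- Tregs, 0 members had an unadjusted p under 0.05 in edgeR fits restricted to the same sequencer or the compared libraries. All members overlapped in both comparisons with DLN/naive Treg, where 6.34% of all genes did not for CD127- and 7.68% for CD127high Tregs. Without library 3 of that group, which held male cells by its sex genes, female libraries were compared with male ones. In this setting 0 members were called in either comparison, with 1 and 0 at an unadjusted p under 0.05. The log2 fold change of Pfkp in CD127- against naive Tregs was then -1.23 (unadjusted p = 0.0919, adjusted p = 0.687, edgeR), and that of Gapdh was 1.66 (unadjusted p = 0.0445, adjusted p = 0.612, edgeR). The B cell genes summed to 184 to 647 CPM in DLN/CD127high Treg against 82.9 to 287 CPM in DLN/CD127- Treg, and the macrophage and monocyte genes to 603 to 986 CPM against 102 to 751 CPM. Against DLN/naive Treg, where the B cell genes summed to 14.01 to 76.0 CPM, 2 of 8 were called higher in CD127- (list median 1.87) and 4 of 8 in CD127high Tregs (3.12). Their part in these differences was not tested.

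Whether the effect of a Treg subset differed between DLN and spleen was tested as a difference of log2 fold changes. None of the 10 members was called for CD127high against CD127- (0.118% of all genes), CD127high against naive (0.225%), CD127- against naive (0.138%) or, in the spleen, tolerant against naive in CD4+ T cells minus that in CD45+CD4- cells (0.0473%). Of these 40 member tests 2 had an unadjusted p under 0.05, against 7.76% of all genes, and the lowest adjusted p was 0.349. Ldha averaged 436 ± 235 CPM in SP/CD127- Treg against 202 ± 31.0 CPM in SP/naive Treg, and 85.1 ± 35.1 against 172 ± 107 CPM in DLN. The difference of these effects, DLN minus spleen, was -2.13 ± 0.81 (95% interval -3.72 to -0.53, unadjusted p = 0.00920, adjusted p = 0.349, edgeR). Without library 3 of DLN/naive Treg it was -1.66 (unadjusted p = 0.0394, adjusted p = 0.523, edgeR), and without library 1 of SP/CD127- Treg it was -1.62 (unadjusted p = 0.0596, adjusted p = 0.631, edgeR). Slc2a1 gave -4.26 ± 2.09 for CD127high against CD127- (unadjusted p = 0.0428, adjusted p = 0.618, edgeR). Hk1 was higher in every CD127high than in every CD127- library in the spleen and lower in every one in the DLN, and the difference of the effects was -2.95 ± 1.77 (95% interval -6.43 to 0.53, adjusted p = 0.685, edgeR). The median standard error of these differences was 1.43. Of 8 B cell genes 2 were called higher in the difference for CD127- against naive (list median 3.27) and 2 in that for CD127high against naive (1.72), and 1 lower in that for CD127high against CD127- (-1.43). In the first of these the T cell genes had 4 of 8 at an unadjusted p under 0.05 (list median -0.53) and the kidney epithelial genes 3 of 10 (4.12). In the spleen difference 2 of 7 Treg genes were called higher and 2 of 8 B cell and 2 of 5 erythroid genes lower, and the part of these lists was not tested.

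Isoenzymes and paired transporters were also set against each other within each library as shares of their summed CPM per kb of exon, which removes the library's scale. Pfkp made up 54.4 ± 9.74% of Pfkp and Pfkl together in DLN/CD127- Treg and 69.4 to 89.5% on average in the other 10 groups. Its share was highest in DLN/naive Treg, at 82.8, 94.3 and 91.4%, against 46.6, 65.3 and 51.3% in DLN/CD127- Treg, without overlap. A further subunit, Pfkm (10.9 CPM on average), did not enter. The size of the share depends on the union exon lengths of 13401 bases for Pfkp and 6675 for Pfkl. Their protein-coding transcripts held 4561 and 3734 distinct windows of 75 bases. Hk1 made up 88.5 ± 9.97% of Hk1 and Hk2 together in naive CD4+ T cells and 78.9 ± 3.91% in SP/CD127high Treg, but 27.3 ± 12.4% in tolerant CD45+CD4- cells and 22.8 ± 19.4% in DLN/CD127high Treg. The hexokinase Hk3 (2.05 CPM on average) did not enter. Ldha made up 97.7 ± 2.69% of Ldha and Ldhb in naive CD45+CD4- cells, because Ldhb, the subunit that favours lactate oxidation, was nearly absent there. Among spleen Tregs the share of Ldha was 89.6, 100 and 95.5% in SP/CD127high Treg against 74.8, 72.2 and 75.3% in SP/CD127- Treg and 52.7, 66.2 and 62.7% in SP/naive Treg, and the CD127high libraries did not overlap with either. In DLN the groups overlapped, at 3.37, 97.7 and 88.3% (CD127high), 49.2, 58.7 and 47.5% (CD127-) and 20.2, 58.6 and 100% (naive). Slc2a1 made up 17.6 ± 30.4% of Slc2a1 and Slc2a3, the high-affinity transporter GLUT3, in DLN/CD127high Treg and 62.7 ± 20.8% in tolerant CD4+ T cells. It was 60.4 ± 3.53% in tolerant CD45+CD4- cells and 27.9 ± 3.25% in naive CD4+ T cells without overlap, and the SD was 13.04 to 32.4 points in the other 9 groups. These shares were not tested.

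**Figure D4:**
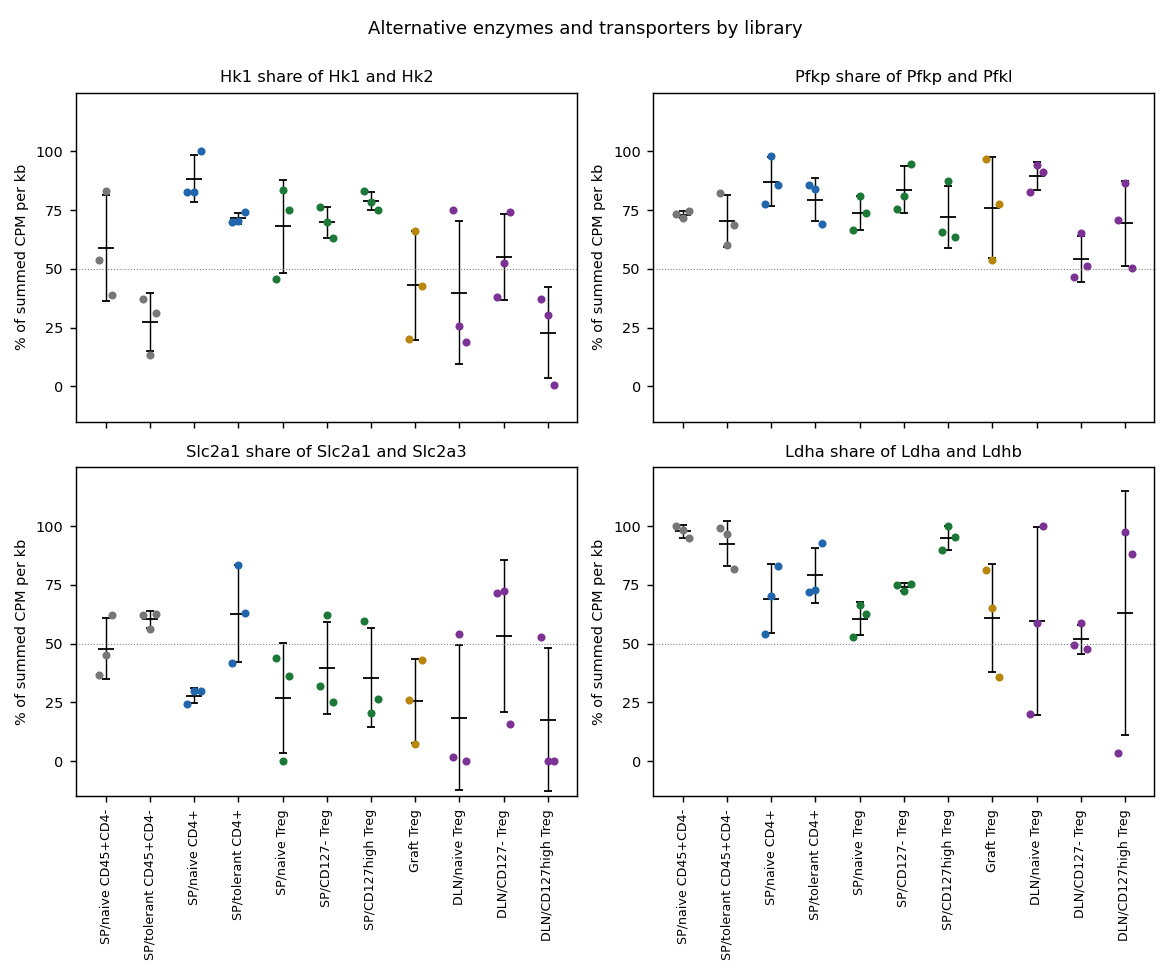
Share in percent of the first-named gene in the summed CPM per kb of each isoenzyme or transporter pair, with each library as a point, the mean and SD of 3 libraries per group, and a dotted line where both genes are equal. The Ldha share was high in CD45+CD4- cells and in SP/CD127high Treg, and the Slc2a1 share spread widely within the 3 DLN groups.

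Other genes of the pathway were described from fixed lists. Of 18 other glycolytic enzymes tested, 1 call was made in 324 tests (0.309%), where 0.321% of all gene tests were called, and 24 (7.41%) had an unadjusted p under 0.05, against 7.86% of all. The median log2 fold change of this list ranged from -0.65 to 0.74 over the 18 comparisons, and that of all genes from -0.26 to 0.58. Ldhb was 0, 1.63 and 3.54 CPM in naive CD45+CD4- cells and 55.5, 31.4 and 41.5 CPM in naive CD4+ T cells, so it was higher in every T cell library, with a log2 fold change of 4.60 ± 1.30 (adjusted p = 0.0479, edgeR). The gene was called in 7 of 15 alternatives, whose adjusted p ranged from 5.16e-04 to 0.27, and was not called by the likelihood ratio test, with RLE factors, with the stricter filter, with the replicate block, nor without library 1 or 2 of the CD45+CD4- cells or library 1 or 3 of the CD4+ T cells. Ldhb was also low in SP/CD127high Treg, at 12.3, 0 and 4.92 CPM, against 110.5, 70.0 and 36.1 CPM in SP/CD127- Treg without overlap (-3.63 ± 1.23, adjusted p = 0.448, edgeR). The 3 most abundant of the list were Eno1 (enolase, 71.4 CPM on average), Gpi1 (glucose 6-phosphate isomerase, 52.9 CPM) and Adpgk (ADP-dependent glucokinase, 39.2 CPM), and Eno1 shared 44.3% of its windows with other genes. Eno1 was highest in Graft Treg (113 ± 40.4 CPM) and lowest in naive CD45+CD4- cells (23.7 ± 17.04 CPM).

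Of 9 other transporters of glucose, lactate and pyruvate, 0 were called in 162 tests by edgeR's quasi-likelihood test, with 19 (11.7%) at an unadjusted p under 0.05, against 7.86% of all gene tests, and list medians from -0.83 to 0.95. The most abundant were the mitochondrial pyruvate carriers Mpc2 (139.6 CPM on average) and Mpc1 (97.7 CPM) and Slc2a3 (58.1 CPM). Slc2a3 was 59.9, 143 and 149 CPM in SP/CD127high Treg, its highest group, and 21.7, 14.2 and 23.7 CPM in tolerant CD4+ T cells, its lowest, which do not overlap.

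Of 16 regulators of glycolytic flux, 2 calls were made in 288 tests (0.694%, against 0.321% of all gene tests), with 34 (11.8%) at an unadjusted p under 0.05, against 7.86%, and list medians from -0.50 to 1.49. Hif1a, the oxygen-regulated transcription factor, was 487, 844 and 793 CPM in SP/CD127- Treg and 127, 144 and 182 CPM in tolerant CD4+ T cells, higher in every Treg library at 2.23 ± 0.50 (adjusted p = 0.00756, edgeR). It was called in 10 of 15 alternatives, whose adjusted p ranged from 3.35e-09 to 0.144. It was not called by the likelihood ratio test, nor without library 1 or 2 of the CD4+ T cells or library 2 or 3 of the Tregs. Pdk3, a kinase that inhibits pyruvate dehydrogenase, was 0, 7.09 and 177 CPM in DLN/CD127high Treg and 0, 0.701 and 0.620 CPM in DLN/naive Treg (6.97 ± 1.80, adjusted p = 0.0233, edgeR). The groups overlapped, and the gene was called in 7 of 15 alternatives, with an adjusted p from 0.00274 to 0.638. Without library 3 of DLN/CD127high Treg the log2 fold change was 2.83 and not called, and leaving out any of the 3 DLN/naive Treg libraries also ended the call. The 3 most abundant were Txnip, an inhibitor of glucose uptake, Hif1a and Pdk1. Txnip was 559.8, 509 and 608 CPM in SP/CD127high Treg and 238, 266 and 349.7 CPM in SP/CD127- Treg without overlap. Pdk1, another pyruvate dehydrogenase kinase, was 459, 508 and 387 CPM in naive CD4+ T cells against 150.3, 158 and 165 in SP/naive Treg, 90.1, 154 and 88.2 in SP/CD127- Treg and 126, 150.3 and 123 CPM in SP/CD127high Treg. Every one of these Treg libraries was lower, with log2 fold changes of -1.51 ± 0.56, -2.03 ± 0.57 and -1.76 ± 0.56 and adjusted p of 0.446, 0.0749 and 0.199 (edgeR), so none was called.

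**Figure D5:**
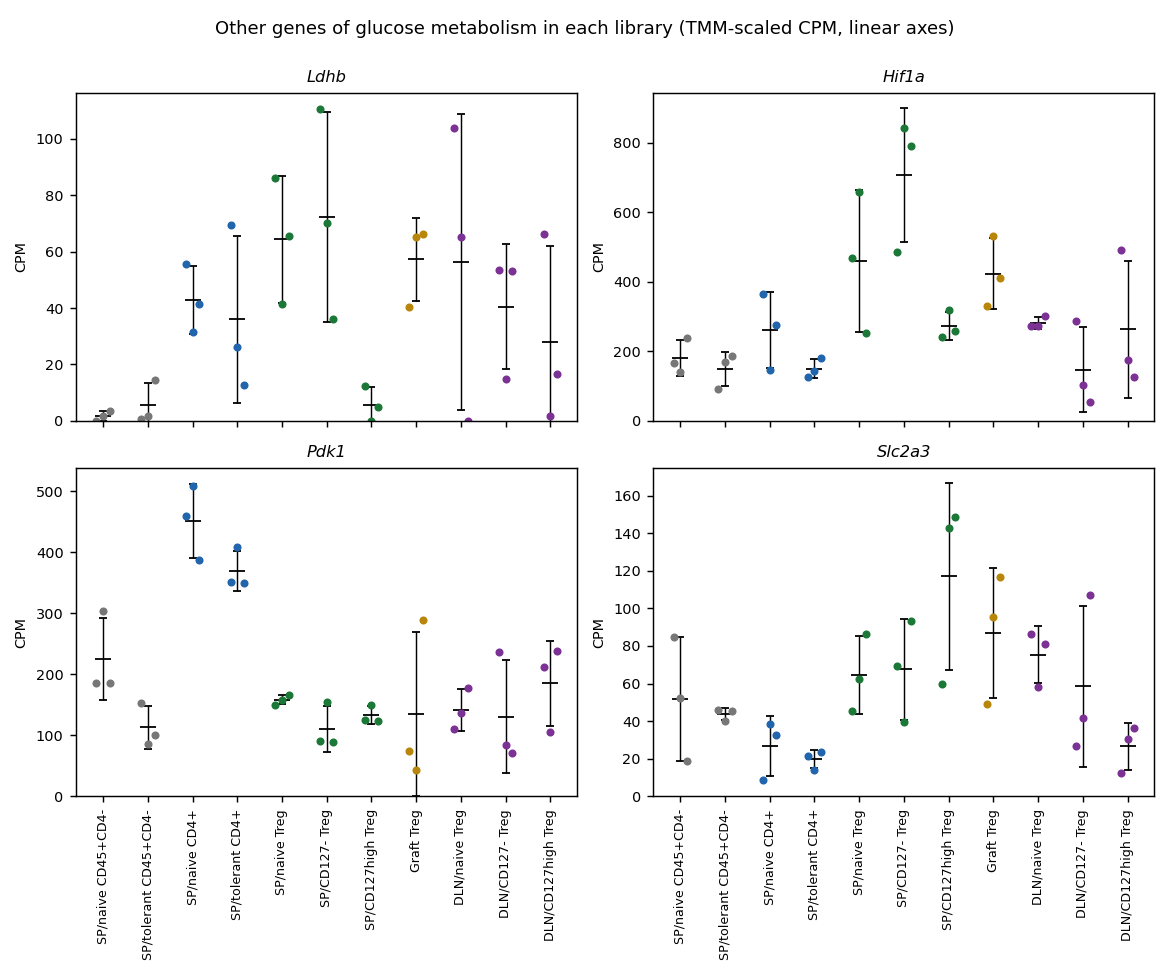
Level in CPM (TMM-scaled) of other genes of the pathway in the 11 groups, with each library as a point and the mean and SD of 3 libraries (error bars cut at 0). Ldhb was low in CD45+CD4- cells and in SP/CD127high Treg, and Hif1a had its highest mean in SP/CD127- Treg.

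Patterns over the 11 group means of log2 CPM were compared by Pearson's r as a description. The members did not share 1 pattern, since r between 2 members ranged from -0.66 to 0.82 with a median of -0.07. The most alike were Pgk1 and Ldha (0.82) and Hk2 and Pfkl (0.82). Gapdh was nearest to Pgk1 (0.73), Aldoa to Gapdh (0.66), Slc2a1 to Aldoa (0.60), Pkm to Pgk1 (0.58), Hk1 to Slc2a1 (0.37) and Pfkp to Pfkl (0.32). Among 6816 candidate genes with a mean of at least 20 CPM, those most like the mean of the members were Ywhab (0.86), Tamm41 (0.81), Dcun1d5 (0.80), Mrpl46 (0.80) and Taf10 (0.79). The points share libraries, depth and sequencer, so these values describe the 11 means only.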

How the data were processed

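Bulk RNA-Seq of sorted mouse cells gave 33 libraries in 11 groups of 3, grouped by the labels. According to the methods, cDNA was amplified with the SMART-Seq v4 kit, libraries were made with Nextera XT and sequenced as read pairs, the authors trimmed reads, mapped them with STAR to the mm10 genome extended by EGFP, and deposited raw, unnormalized counts per gene. The submitters' processing notes name FastQC, Trim Galore and STAR without versions. The methods name HTSeq for counting, although the tables look like the gene count output of STAR. The column over both strands was used, since the kit does not mark strand. Amplified reads carry no molecular identifiers. Rows that name no gene (unmapped, multimapping, ambiguous or without a feature) held 37.0 to 69.2% of the reads of a library, 6.43 to 14.1% being multimapping, and stayed out of library sizes and tests.

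Symbols and positions came from the Ensembl annotation on GRCm38, the build of mm10, and 120 of 31054 features had no symbol there. The filter kept genes that reached 1 CPM in 1 library or more. TMM factors (0.847 to 1.20) were computed over all libraries, and 1 model with a mean per group was fitted in R 4.3.3 with edgeR 4.0.16 and limma 3.58.1. The 18 comparisons and 4 differences of effects used edgeR's quasi-likelihood test, with adjustment over all genes and a threshold of 0.05. Tables, sequence searches and figures used Python 3.11.15, pandas 2.3.3, numpy 2.4.6 and matplotlib 3.10.9. All 10 members are named. From the other lists, genes are named when called in a comparison described or when among the 3 with the highest mean CPM of their list, and Pdk1, Txnip and Slc2a3 values were set beside the members for that reason. The members, lists and comparisons were chosen with earlier results of these data known.

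The fit used trended dispersions, the default of the installed edgeR. The plan had listed them as the alternative to a single dispersion from abundant genes. The roles were exchanged after both fits had been seen, and no member was called in either. Further alternatives were the likelihood ratio test, DESeq2 1.42.0, RLE factors, 2 filters on low counts, models of fewer libraries, the replicate number as a block, strand-specific count columns and leaving out each library. No 2 libraries of a group were the same library, because their counts differed by a chi-square of 24.7 to 75.6 per degree of freedom.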

Additional observations from a re-analysis of the deposited data

Results flagged for a closer look

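The effect of CD127high against naive Tregs on Pfkfb4, an enzyme that sets the level of the phosphofructokinase activator fructose 2,6-bisphosphate, differed between DLN and spleen (adjusted p = 0.0481, edgeR's quasi-likelihood test of the difference of effects). Pfkfb4 was 54.5, 0.788 and 0 CPM in DLN/CD127high Treg and 0 in all 3 DLN/naive Treg libraries, and it was 0.212, 0.306 and 0 CPM in SP/CD127high Treg and 3.30, 12.5 and 0.253 CPM in SP/naive Treg. The value rests on library 1 of DLN/CD127high Treg, without which the adjusted p was 0.594, and without library 3 of DLN/naive Treg, whose sex genes were those of males, it was 0.0941. It was under 0.05 in 2 of 12 fits that left out 1 library and with the likelihood ratio test, and not with a single dispersion or the replicate block. The fitted log2 difference is no bound, because a whole group was at 0.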

How the results depend on the processing

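In every alternative, 0 of the 10 members were called in the tests it was run for, which were the 18 comparisons and, where 220 tests are given, also the 4 differences of effects. These were the likelihood ratio test (8 of 220 tests at an unadjusted p under 0.05), a single dispersion (17 of 220, chosen as an alternative after the results were seen), DESeq2 (16 of 180), RLE factors (6 of 180), no filter on low counts (6 of 180), a filter on 10 counts in 3 libraries or more (7 of 180), only libraries of the same sequencer (15 of 180) and only the compared libraries (17 of 180). Leaving out each of the 33 libraries, over 156 fits by comparison or difference of effects, gave 0 to 0 members called. The replicate block also gave 0 members called and 8 of 220 at an unadjusted p under 0.05. The libraries share a number and no stated source, and in 0 of the comparisons did every same-numbered pair reach the r of 0.1 taken as pairing. Deviations from group means had a median r of 0.0054 for the same number against -0.0032 for others, while 16 of 33 libraries correlated best with their own number, where 11 would if the numbers were alike, which is a hint from the data and not from the design.

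Counts over all genes did depend on the fit. They ranged from 5 to 263 genes per comparison in the main test, 11 to 646 with a single dispersion, 0 to 285 with the likelihood ratio test, 31 to 959 with DESeq2, 13 to 287 without a filter, 0 to 173 with the stricter filter, 7 to 721 within a sequencer, 6 to 637 with the compared libraries only and 13 to 292 with the block, and the cause was not tested. The 5 member comparisons and 2 member differences of effects with an unadjusted p under 0.05 kept their direction in every alternative run for them. None of them was called, and the directions of the other member tests were not compared. Over 60 recomputed fits of a difference of effects, 0 members were called each time. Among the other genes named, Ldhb, Hif1a, Pdk3 and the Pfkfb4 difference of effects lost their call in 8, 5, 8 and 12 of 15 alternatives. Of 440 recomputed group means 17 moved by more than the SD of the group. The groups did not overlap in 34 of 180 cases without TMM factors and in 32 with RLE factors, against 31. The depth of DLN libraries, where 3 counts stand for up to 3.55 CPM, and the standard errors limit what could be detected at low levels of Slc2a1, Hk2 and Pfkl.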
